A study of Mus musculus with 6 samples.

Results

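Voltage-gated sodium channels, voltage-gated calcium channels and HCN channels turn changes of membrane voltage into ion currents, and their transcripts were compared here between retinas with a conditional deletion of *Mll1*, which encodes a histone methyltransferase, and wild-type retinas. The members were the genes of the deposited table whose symbol begins with *Scn* and a digit, *Cacna1*, *Cacna2d*, *Cacnb*, *Cacng* or *Hcn* and a digit, with *Cacna1f* and *Cacna2d4* left out. Of 11339 genes, 31 such members are described. The samples were taken at postnatal day 14 and comprised 3 MLL1KO and 3 WT samples of 2 retinas each, with the letters a, b and c in both groups. MLL1KO mice carry floxed alleles of *Mll1* on both chromosomes and a Cre transgene that is active in the progenitor cells of the retina. By the account of the study some *Mll1* without the deletion remained at this age, so the retinas did not lack MLL1 fully. The controls are labelled wild type, and both groups have the strain C57Bl6/J. Since floxed alleles and Cre are named for MLL1KO alone, the deletion of *Mll1*, the floxed alleles and Cre cannot be told apart. Values are RPKM, in which the reads of a gene are divided by its length and by the library total, and the gene table had been filtered by the authors on read abundance, so that channel genes below that filter have no value here. *Scn9a*, *Scn10a*, *Scn11a*, *Scn4b*, *Cacng1*, *Cacng6*, *Cacng7* and *Cacng8* are not listed.

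Sodium channels carry the upstroke of the action potential and consist of a pore-forming alpha subunit with smaller beta subunits. In the retina, ganglion cells and many amacrine cells fire action potentials, while photoreceptors and most bipolar and horizontal cells signal mainly with graded voltages. Calcium channels hold a pore-forming subunit of the Cav1, Cav2 or Cav3 class, with alpha2delta and beta subunits that set the amount and the gating of the channels at the membrane, and they start transmitter release at synapses. HCN channels open when the membrane becomes negative, and in photoreceptors and bipolar cells they shape the time course of the light response.

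The library totals recovered from RPKM were 23836033, 19777205 and 19323512 reads for WT libraries a, b and c, and 23348923, 19855963 and 17961097 reads for MLL1KO libraries a, b and c. The member with the lowest count still had 146 reads in its poorest library. *Kmt2a*, the current symbol of *Mll1*, had 36.1, 36.9 and 34.6 RPKM in WT and 22.9, 20.4 and 22.3 RPKM in MLL1KO. All MLL1KO libraries lay below all WT libraries, and the log2 fold change was -0.69 ± 0.05 (SE, adjusted p = 2.77e-05). Exons 3 and 4, which lie between the *LoxP* sites, hold 17.0% of the length behind this RPKM, so the rest of that length lies in exons which the deleted allele keeps. Markers of the pigment epithelium, a layer that adheres to the retina, differed between the libraries of each genotype. *Pmel*, a pigment granule protein, had 57.1, 15.1 and 99.4 RPKM in WT a, b and c and 9.37, 34 and 11 RPKM in MLL1KO a, b and c, and *Acta2*, a smooth muscle actin, had 14.5, 3.21 and 22.3 RPKM in the same WT libraries and between 3.34 and 3.99 RPKM in MLL1KO. WT libraries a and c thus stood apart from WT library b in these 2 genes, and the channel results are also given with b as the only WT library, where a call changes.

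Among the 31 channel genes, 12 were lower and 5 were higher in MLL1KO at an adjusted p of 0.05 (limma on log2(RPKM + 1), adjusted over 11339 genes), while 14.5% of all genes were called lower and 8.81% higher. With median-of-ratios, trimmed-mean or upper-quartile scaling 9 members were lower and 6 higher, and among all genes 1126 to 1190 were lower and 1249 to 1276 higher, in place of 1644 and 999. In either direction 17 members were called, beside 23.3% of all genes. The median log2 fold change was -0.12 over the members (-0.08 with WT b as the only WT library) and -0.03 over all genes. All MLL1KO libraries lay below all WT libraries for 15 members, where this held for 26.5% of all genes, and above them for 6 members, where it held for 14.6%. The HCN gene *Hcn4* fell most, to 59.3% of its WT mean, and the calcium channel gene *Cacna1s* rose most, to 200.5%. The size of the log2 fold change of RPKM + 1 was below 0.5 for the other 29 members, while *Scn7a* was at 0.54 with a pseudocount of 0.1 and 0.58 with limma-voom. The summed RPKM of all members was 461.0, 442.2 and 448.0 in WT a, b and c and 415.4, 407.9 and 405.2 in MLL1KO a, b and c, so that the MLL1KO sums lay below the WT sums, by the least between WT b and MLL1KO a. In bulk samples, fewer cells of a type and less RNA per cell cannot be told apart.

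The direction of small changes depended on the scaling of the libraries. Of 11 rod markers 7 were higher in MLL1KO, and after dividing each library by its summed level of the planned rod genes the median of all genes moved from -0.03 to -0.32, a shift of -0.29, with 28 of the 31 members below 0 and 11 of the 31 above that median. Under this scaling 85% of all genes were called lower and 1.73% higher. Relative to the median of all genes, 29 of the 31 members kept their side under it. The low ends of the ranges of adjusted p given below for *Cacna2d1*, *Cacna2d2*, *Cacnb1*, *Cacnb3*, *Cacng3* and *Cacng4* came from rod-gene scaling. With WT b as the only WT library, 5 members were called, 2 lower and 3 higher, and all 5 had been called with all libraries; the 2 lower genes were *Hcn4* and *Cacna1h*. The other 12 kept their direction without a call in this fit of fewer samples, and among them *Cacnb3* moved most, from -0.16 to -0.08. Without WT a, and also without MLL1KO b, 8 members were called lower in place of 12. Over all genes the share called lower was 10.8% without WT a and 10.4% without MLL1KO b, in place of 14.5%.

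**Figure D1:**
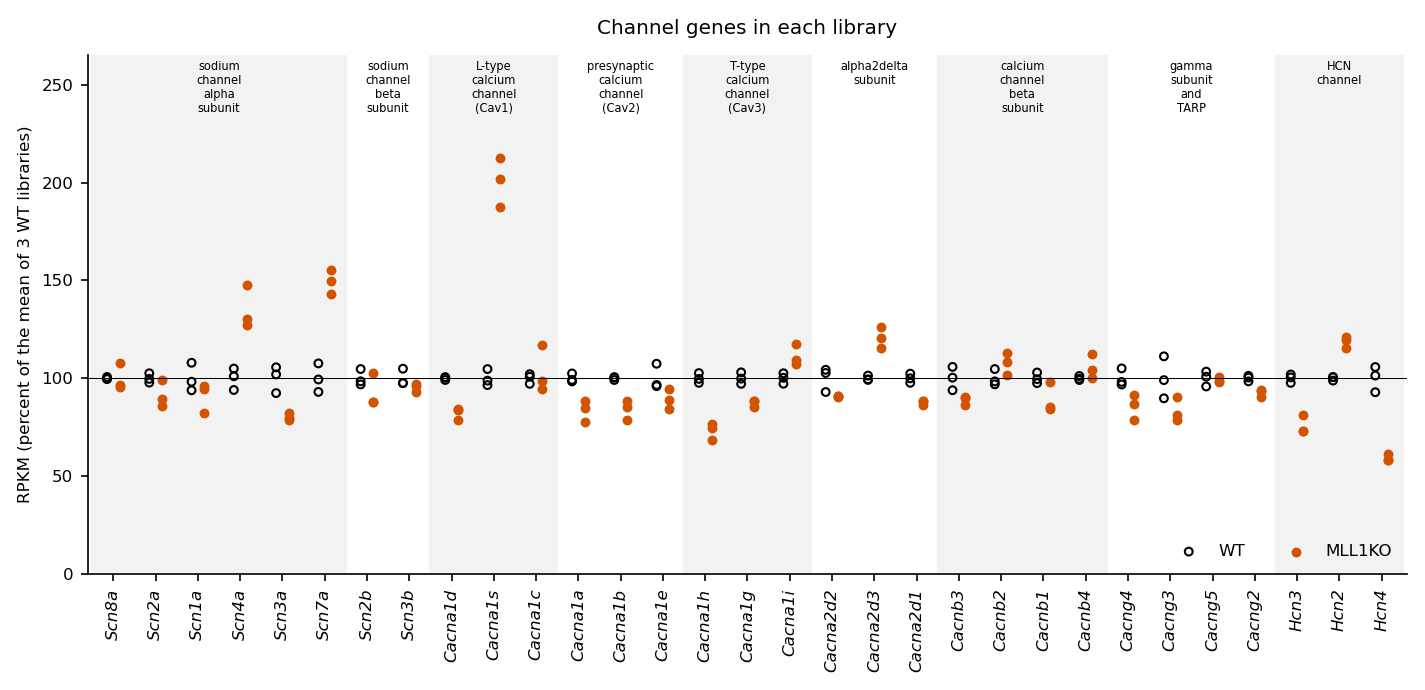
RPKM of each of the 31 channel genes in each library, as a percent of the mean of the 3 WT libraries (y axis), with the genes ordered by role group and by WT level (x axis). Open circles are WT and filled circles MLL1KO libraries; *Hcn4* lies lowest, at a mean of 59.3%, and *Cacna1s* highest, at 200.5%.

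HCN channels are built of 4 subunits, alike or mixed. Of the 3 members of this family *Hcn4* and *Hcn3* were called lower and *Hcn2* higher (over all genes 14.5% were lower and 8.81% higher). *Hcn4* (ENSMUSG00000032338, chromosome 9 from 58823412 to 58863175, plus strand), a slowly gating subunit known from the pacemaker of the heart and from bipolar cells, had 11.4, 10.9 and 10 RPKM in WT a, b and c and 6.26, 6.62 and 6.27 RPKM in MLL1KO a, b and c. The groups were far apart beside the spread within each, with means of 10.8 ± 0.705 (SD, n = 3) and 6.38 ± 0.203 (SD, n = 3), and the log2 fold change was -0.67 ± 0.06 (SE, adjusted p = 6.54e-05), which passed the threshold in all 16 alternatives. *Hcn3*, the most abundant of the 3 in WT but not in MLL1KO (chromosome 3 from 89146074 to 89160196, minus strand) had 15.7, 15.2 and 15.9 RPKM in WT and 12.7, 11.4 and 11.4 RPKM in MLL1KO. The groups did not overlap and the log2 fold change was -0.37 ± 0.05 (SE, adjusted p = 0.000907). Of the exon length of *Hcn3*, 17.1% overlaps exons of *Pklr* on the other strand, and the counting was not stated to use strand, so reads of both genes cannot be told apart there. With WT b as the only WT library, *Hcn3* was at -0.34 and was not called. It was called in 15 of its 16 alternatives, with a lowest adjusted p of 2.23e-06, which came from rod-gene scaling.

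*Hcn2*, a subunit of intermediate speed, had 13.2, 13.2 and 13.0 RPKM in WT and 15.2, 15.9 and 15.7 RPKM in MLL1KO, with narrow spread in both groups, and a log2 fold change of 0.23 ± 0.04 (SE, adjusted p = 0.00399). This rise turned to a value below 0 with rod-gene scaling, -0.08. With WT b alone *Hcn2* was at 0.22 with an adjusted p of 0.0879, within a range of 0.00226 to 0.224 over its alternatives.

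The shares of the 3 genes in their summed RPKM do not depend on library scaling. *Hcn4* held 28.3%, 27.7% and 25.7% in WT a, b and c and 18.3%, 19.5% and 18.8% in MLL1KO a, b and c, and *Hcn2* held 32.8%, 33.6% and 33.4% in WT and 44.6%, 47.0% and 47.1% in MLL1KO. The share of *Hcn3* was 38.7% to 40.9% in WT and 33.5% to 37.1% in MLL1KO. None of these shares overlapped between the genotypes. The sum of the 3 genes was also lower in every MLL1KO library, at 38.9 to 40.3 RPKM in WT and 33.4 to 34.1 RPKM in MLL1KO.

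**Figure D2:**
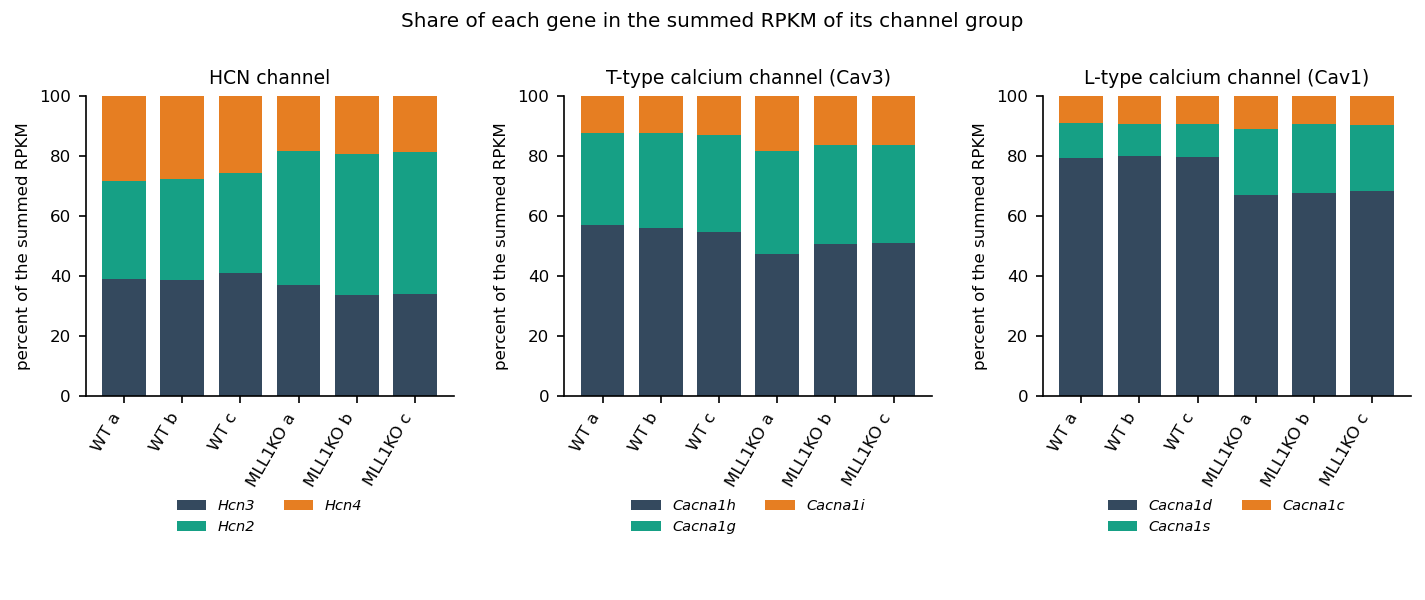
Share of each gene in the summed RPKM of its channel group (y axis, percent) in each of the 6 libraries (x axis), for HCN, Cav3 and Cav1 genes. The share of *Hcn4* among *Hcn2*, *Hcn3* and *Hcn4* was between 25.7% and 28.3% in WT and between 18.3% and 19.5% in MLL1KO. The Cav1 shares are among *Cacna1c*, *Cacna1d* and *Cacna1s*, without the more abundant *Cacna1f*. There *Cacna1s* held between 10.6% and 11.5% in WT and between 22.1% and 23.3% in MLL1KO.

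T-type channels of the Cav3 class open near the resting voltage. *Cacna1h* (ENSMUSG00000024112, chromosome 17 from 25374285 to 25433783, minus strand) was the most abundant pore-forming calcium channel gene among the members, with 44.7, 43.4 and 42.5 RPKM in WT and 29.9, 33.4 and 32.6 RPKM in MLL1KO. The highest MLL1KO library was well below the lowest WT library, and the log2 fold change was -0.44 ± 0.05 (SE, adjusted p = 0.000257), past the threshold in all 16 alternatives. *Cacna1g* had 23.9, 24.6 and 25.4 RPKM in WT and 21.8, 21.7 and 21 RPKM in MLL1KO. This was a smaller difference without overlap, with a log2 fold change of -0.19 ± 0.04 (SE, adjusted p = 0.00999). *Cacna1i*, the most slowly gating Cav3 gene, had 9.51 to 10 RPKM in WT and 10.5 to 11.5 RPKM in MLL1KO. Its groups did not overlap either, and its log2 fold change of 0.14 was not called (adjusted p = 0.0692), was called with 3 scalings and with limma-voom (adjusted p of 0.0265 to 0.0368), and was called lower, at -0.16, with rod-gene scaling (adjusted p = 0.03). The range over its alternatives was 0.0265 to 0.212. *Cacna1h* held 54.6% to 57.0% of the summed Cav3 RPKM in WT and 47.3% to 50.9% in MLL1KO, and *Cacna1i* 12.3% to 12.9% and 16.3% to 18.2%. With WT b as the only WT library *Cacna1g* was again at -0.19 and was not called. Its lowest adjusted p over the alternatives, 9.28e-06, came from rod-gene scaling.

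L-type channels of the Cav1 class serve sustained calcium entry, and the 3 members of this class went different ways. *Cacna1d*, known from ribbon synapses and cell bodies, had 14.1, 14.3 and 14.3 RPKM in WT and 11.9, 12 and 11.2 RPKM in MLL1KO. The WT values were close together and above all MLL1KO values, and the log2 fold change was -0.26 ± 0.05 (SE, adjusted p = 0.00302). *Cacna1s* (ENSMUSG00000026407, chromosome 1 from 136052750 to 136119822, plus strand), the pore of the skeletal muscle channel, had 2.04, 1.88 and 1.93 RPKM in WT and 3.94, 4.14 and 3.66 RPKM in MLL1KO. Every MLL1KO library was above every WT library, with a log2 fold change of 0.73 ± 0.06 (SE, adjusted p = 3.76e-05) that remained past the threshold in all 16 alternatives. Its size depended on the pseudocount and the model, at 0.97 with a pseudocount of 0.1 in place of 1, 0.36 with 5, 1 with limma-voom and 0.49 with rod-gene scaling. These values rest on 244 to 602 reads per library, and 20% of the exon length of *Cacna1s* overlaps the gene *Gm37759* on the other strand, whose reads cannot be told apart there. None of the 5 skeletal muscle markers (*Acta1*, *Myh4*, *Ckm*, *Tnnt3* and *Myl1*) is listed in the table. *Cacna1c*, the main L-type gene of heart and brain, ranged from 1.57 to 1.95 RPKM with a log2 fold change of 0.03 and overlapping groups (adjusted p = 0.794). Of the summed Cav1 RPKM of the members, *Cacna1s* held 11.5%, 10.6% and 10.7% in WT and 22.1%, 23.3% and 22.3% in MLL1KO. With WT b as the only WT library *Cacna1d* was at -0.27 and was not called. Its lowest adjusted p over the alternatives, 5.67e-06, came from rod-gene scaling.

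Both photoreceptor subunits that the rule left out were more abundant than any Cav member. *Cacna1f*, the pore of the channel at rod and cone ribbon synapses, had 80.2 to 82.6 RPKM in WT and 86.8 to 89.5 RPKM in MLL1KO (log2 fold change 0.11, adjusted p = 0.051, and -0.21 with rod-gene scaling). *Cacna2d4*, its alpha2delta partner, had 80.9 to 81.8 RPKM in WT and 82.8 to 84.1 RPKM in MLL1KO (log2 fold change 0.03, adjusted p = 0.515, and -0.29 with rod-gene scaling). Neither passed the threshold.

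Cav2 channels trigger release at conventional synapses. *Cacna1a*, the pore of P/Q-type channels and the most abundant of the group, had 12.9, 12.4 and 12.5 RPKM in WT and 11.1, 10.7 and 9.76 RPKM in MLL1KO, with a log2 fold change of -0.24 ± 0.05 (SE, adjusted p = 0.011). *Cacna1b*, the pore of N-type channels, had 10.8, 10.9 and 10.9 RPKM in WT and 9.59, 9.26 and 8.57 RPKM in MLL1KO, with a log2 fold change of -0.23 ± 0.05 (SE, adjusted p = 0.0119). In both genes MLL1KO c was the lowest library and the groups did not overlap. *Cacna1e*, the pore of R-type channels, had 1.76 to 1.96 RPKM in WT and 1.54 to 1.73 RPKM in MLL1KO, also without overlap, and its log2 fold change of -0.10 was not called (adjusted p = 0.2). The summed RPKM of the 3 genes was 25.2 to 25.4 in WT and 19.9 to 22.4 in MLL1KO, while *Cacna1a* held 49.1% to 50.8% of it in WT and 49.1% to 49.5% in MLL1KO, so the proportions of the group overlapped between the genotypes. With WT b as the only WT library neither gene was called, at -0.22 for *Cacna1a* and -0.23 for *Cacna1b*. Their lowest adjusted p over the alternatives, 9.37e-06 and 1.43e-05, came from rod-gene scaling.

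**Figure D3:**
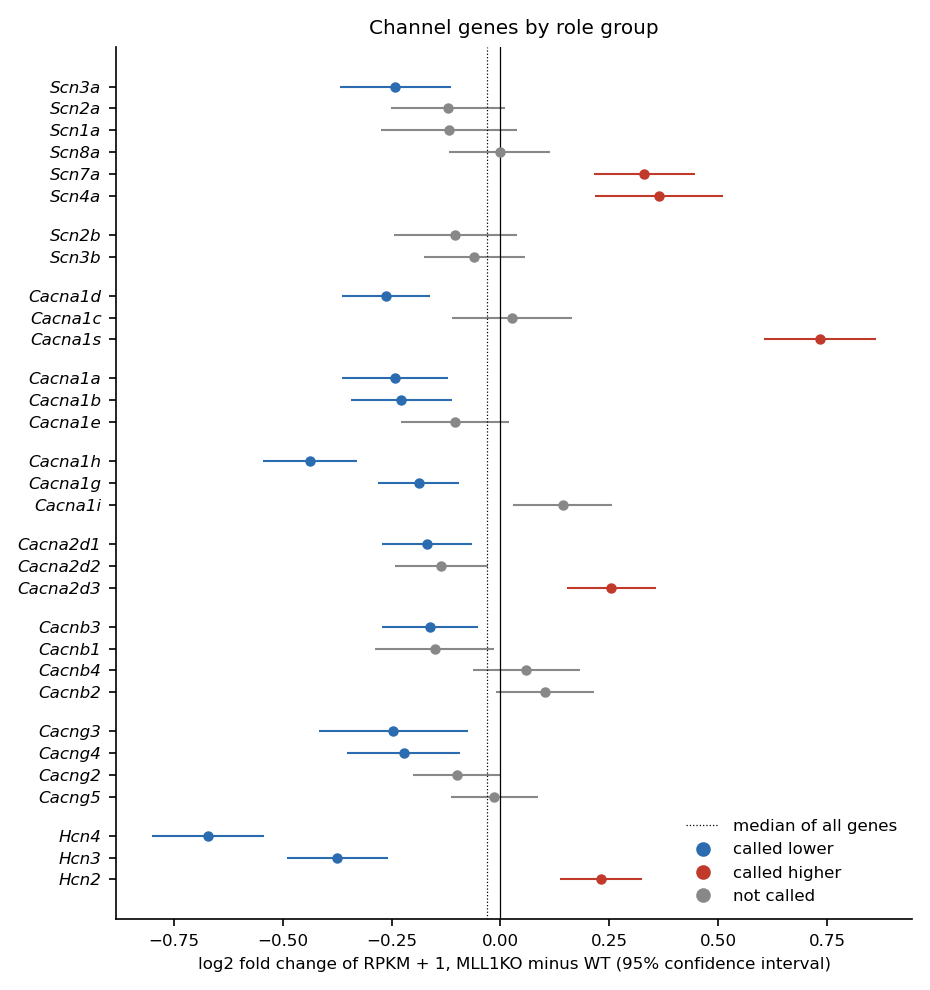
Log2 fold change of RPKM + 1 in MLL1KO minus WT (x axis) with its 95% confidence interval from limma, for the 31 channel genes in 9 role groups (y axis). Blue genes were called lower (12), red genes higher (5) and grey genes were not called (14); the dotted line is the median of all genes, -0.03, and with rod-gene scaling *Hcn2* and *Cacna2d3* were below 0.

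Of the 3 alpha2delta genes, 1 was lower and 1 higher (over all genes 14.5% were lower and 8.81% higher). *Cacna2d1*, a widely expressed subunit that binds gabapentin, had 9.25, 9.47 and 9.04 RPKM in WT and 7.99, 8.17 and 8.20 RPKM in MLL1KO. Its log2 fold change was -0.17 ± 0.05 (SE, adjusted p = 0.0271). It was not called with the letters as a replicate block (adjusted p = 0.0563). *Cacna2d3* (chromosome 14 from 28904943 to 29721864, minus strand) had 14.8, 14.5 and 14.4 RPKM in WT and 16.8, 17.6 and 18.4 RPKM in MLL1KO, with a log2 fold change of 0.25 ± 0.05 (SE, adjusted p = 0.00371). The most abundant gene, *Cacna2d2*, had 42.1, 37.5 and 41.4 RPKM in WT and 36.6, 36.7 and 36.4 RPKM in MLL1KO. WT b was the WT library nearest the MLL1KO libraries, and the log2 fold change of -0.14 was not called (SE 0.05, adjusted p = 0.0673), though it was without WT b (0.0236) and with limma-voom (0.0429), and was at -0.04 with WT b alone (0.724), in a range of 8.84e-06 to 0.724. *Cacna2d1* was not called without WT a (adjusted p = 0.0601), WT b (0.104), MLL1KO a (0.0587), MLL1KO b (0.0602) or MLL1KO c (0.0673), nor with 3 scalings (0.0587 to 0.0635) or with WT b alone (0.146, at -0.20), in a range of 3.41e-05 to 0.146. *Cacna2d3* was at -0.06 with rod-gene scaling (adjusted p = 0.393) and not called with WT b alone (0.072, at 0.26), in a range of 0.00201 to 0.393.

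Beta subunits bring the pore to the membrane. *Cacnb3*, the most abundant, had 32.1, 28.5 and 30.4 RPKM in WT and 27.5, 27.3 and 26.2 RPKM in MLL1KO, with a log2 fold change of -0.16 ± 0.05 (SE, adjusted p = 0.0394). *Cacnb2*, the beta subunit of photoreceptor synapses, had 21.7 to 23.5 RPKM in WT and 22.8 to 25.3 RPKM in MLL1KO, overlapping groups with a log2 fold change of 0.10 that was -0.21 with rod-gene scaling. *Cacnb1* (9.11 to 11.1 RPKM over all libraries, log2 fold change -0.15) and *Cacnb4* (3.45 to 3.92 RPKM, 0.06, with 0.02 without MLL1KO a and -0.20 with rod-gene scaling) were not called either. The call of *Cacnb3* was lost with 3 scalings (adjusted p of 0.0889 to 0.112) and without WT a (0.107), WT c (0.0894), MLL1KO a (0.0546), MLL1KO b (0.0772) or MLL1KO c (0.129), and with WT b alone (0.468, at -0.08), in a range of 6.69e-06 to 0.468. With the letters as a replicate block *Cacnb3* was not called either (adjusted p = 0.0506). *Cacnb1* was called without MLL1KO a (adjusted p = 0.0193, in a range of 9.64e-05 to 0.281).

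The gamma family holds subunits named after muscle calcium channels, of which *Cacng2*, *Cacng3*, *Cacng4* and *Cacng5* encode TARPs that carry AMPA glutamate receptors to synapses. *Cacng4*, the most abundant, had 47.6, 44.4 and 43.8 RPKM in WT and 41.4, 35.5 and 39.3 RPKM in MLL1KO, with a log2 fold change of -0.22 ± 0.06 (SE, adjusted p = 0.0221). *Cacng3* had 26.0, 23.2 and 21 RPKM in WT and 19.0, 18.4 and 21.2 RPKM in MLL1KO. It was the only called member whose groups overlapped, at WT c and MLL1KO c, with a log2 fold change of -0.25 ± 0.08 (SE, adjusted p = 0.0436). With the letters as a replicate block *Cacng3* was not called (adjusted p = 0.0733). *Cacng2* ranged from 10.1 to 10.4 RPKM in WT and from 9.30 to 9.69 RPKM in MLL1KO (log2 fold change -0.10), and *Cacng5* from 14.6 to 15.8 and from 14.9 to 15.3 RPKM (log2 fold change -0.01). Neither was called. The summed RPKM of the 4 genes was 90.6 to 99.5 in WT and 78.6 to 85.1 in MLL1KO. *Cacng4* was not called without WT a (adjusted p = 0.0724), WT b (0.052), MLL1KO b (0.0638) or MLL1KO c (0.0551), nor with WT b alone (0.206, at -0.20), in a range of 1.03e-05 to 0.206. *Cacng3* was not called without WT a (adjusted p = 0.125), WT b (0.1), MLL1KO a (0.0989) or MLL1KO b (0.127), nor with 3 scalings (0.0763 to 0.0858) or with WT b alone (0.141, at -0.24), in a range of 2.93e-05 to 0.141.

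Of 6 sodium channel alpha subunit genes, 1 was lower, 2 higher and 3 not called (over all genes 14.5% were lower and 8.81% higher). *Scn8a*, the main sodium channel of mature axon initial segments and nodes, was the most abundant, with 17.5, 17.7 and 17.5 RPKM in WT and 19.0, 17.0 and 16.8 RPKM in MLL1KO. The WT values were nearly equal and MLL1KO a was above and the other MLL1KO libraries below them, so that the log2 fold change was -0.0015 ± 0.05 (SE, 95% confidence interval -0.12 to 0.11, adjusted p = 0.987). *Scn2a*, the channel of young and unmyelinated axons, ranged from 8.07 to 8.46 RPKM in WT and from 7.07 to 8.15 RPKM in MLL1KO (log2 fold change -0.12), and *Scn1a*, prominent in inhibitory neurons and ganglion cells, from 6.09 to 7.01 and from 5.33 to 6.25 RPKM (log2 fold change -0.12, and -0.06 without MLL1KO c). Both overlapped between the groups and were not called.

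*Scn3a*, the sodium channel of the embryonic nervous system, had 3.42, 3.78 and 3.91 RPKM in WT and 3.05, 2.92 and 2.95 RPKM in MLL1KO, with a log2 fold change of -0.24 ± 0.06 (SE, adjusted p = 0.0143). Every MLL1KO library was below every WT library. *Scn4a*, the channel of skeletal muscle, had 4.84, 4.50 and 5.03 RPKM in WT and 6.23, 7.06 and 6.08 RPKM in MLL1KO, with a log2 fold change of 0.36 ± 0.07 (SE, adjusted p = 0.00371). *Scn7a*, a sodium sensor that does not open with voltage as its relatives do and is known from glia, had 1.07, 1.01 and 1.16 RPKM in WT and 1.62, 1.68 and 1.55 RPKM in MLL1KO, with a log2 fold change of 0.33 ± 0.05 (SE, adjusted p = 0.00181) that passed in all 16 alternatives, though at sizes from 0.12 (pseudocount of 5) and 0.14 (rod-gene scaling) to 0.54 (pseudocount of 0.1) and 0.58 (limma-voom). Both genes that rose had no overlap between the groups. With a pseudocount of 5 the values of *Scn3a* and *Scn4a* were nearer 0 too, at -0.13 and 0.23. *Scn3a* was not called without WT b (adjusted p = 0.0549) or WT c (0.0513), nor with WT b alone (0.0958, at -0.27), in a range of 4.67e-05 to 0.0958. *Scn4a* was not called with rod-gene scaling, at 0.09 (adjusted p = 0.258, in a range of 0.00061 to 0.258).

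The 2 beta subunits of sodium channels among the members, a class that also acts in cell adhesion, were not called. *Scn2b*, the more abundant, had 15.4, 15.1 and 16.3 RPKM in WT and 16, 13.7 and 13.7 RPKM in MLL1KO. MLL1KO a lay among the WT libraries and the others below them, so that the log2 fold change was -0.10 ± 0.06 (SE, 95% confidence interval -0.24 to 0.04, adjusted p = 0.263). Without MLL1KO a *Scn2b* was called, at -0.17 (adjusted p = 0.0418), while it was at -0.07 without MLL1KO b. It was at -0.06 with WT b as the only WT library and at -0.41 with rod-gene scaling (adjusted p = 0.00014). *Scn3b* had 6.65 to 7.15 RPKM in WT and 6.33 to 6.61 RPKM in MLL1KO (log2 fold change -0.06, and -0.03 without WT a), without overlap.

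The channels were further grouped into those tied to spiking neurons and those tied to graded signalling. Which cells expressed each gene was not measured in these bulk samples, so the lists do not stand for separate sets of cells. Of 8 spiking genes (*Scn1a*, *Scn2a*, *Scn3a*, *Scn8a*, *Scn2b*, *Scn3b*, *Cacna1a* and *Cacna1b*), 3 were lower, 0 higher and 5 not called (over all genes 14.5% were lower and 8.81% higher), with a median log2 fold change of -0.12. Of 5 non-spiking genes (*Cacna1d*, *Cacnb2*, *Cacna2d3*, *Hcn2* and *Hcn4*), 2 were lower, 2 higher and 1 not called, with a median of 0.10. That median is the value of *Cacnb2*, the gene not called, whose groups overlapped. The summed RPKM of the spiking genes was 81.6, 81.1 and 83.1 in WT a, b and c and 79.5, 73.6 and 70.8 in MLL1KO a, b and c, without overlap, though MLL1KO a lay close to WT b. That of the non-spiking genes was 77.0, 74.6 and 73.8 in WT and 73.0, 77.5 and 75.8 in MLL1KO, with overlap. With rod-gene scaling both medians were below 0, at -0.41 and -0.21, on either side of the median of all genes, -0.32. Without this scaling, leaving out 1 library gave medians from -0.17 (without MLL1KO a) to -0.08 (without MLL1KO c) for spiking and from 0.07 (without MLL1KO b) to 0.14 (without MLL1KO a) for non-spiking genes. The difference between these groups of genes was not tested.

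Ankyrins, spectrins and adhesion proteins hold sodium channels at the axon initial segment. Of 18 genes of the axon initial segment and partners of sodium channels, 5 were lower and 0 higher (14.5% and 8.81% over all genes), with a median log2 fold change of -0.10, or -0.41 with rod-gene scaling. The lower ones were *Kcnq3*, *Cntn1*, *Ank2*, *Nrcam* and *L1cam*, named here after their values were seen. *Nfasc*, an adhesion protein of the initial segment and the most abundant of the list by WT mean but not by MLL1KO mean, had 52.9 to 55.5 RPKM in WT and 47.6 to 51.9 RPKM in MLL1KO (log2 fold change -0.12, adjusted p = 0.0743). *Kcnq3*, a potassium channel of the initial segment, had the lowest value, without overlap between the groups (log2 fold change -0.29, adjusted p = 0.00464), and *Fgf14* the highest (log2 fold change 0.12, adjusted p = 0.255, and -0.15 with rod-gene scaling). *Ank3*, which organises the initial segment, had 18.4 to 19.3 RPKM in WT and 17.0 to 18.7 RPKM in MLL1KO and was not called.

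Of 15 listed partners of calcium channels, 3 were lower and 1 higher (14.5% and 8.81% over all genes), with a median of -0.04 (-0.01 with the 3 scalings and without WT c, -0.06 without WT a or WT b and -0.34 with rod-gene scaling, beside -0.32 for all genes). *Cabp2*, *Cabp4*, *Rem2*, *Rrad* and *Stac* are not listed. *Calm3*, a calmodulin gene and the most abundant of the list, ranged from 306.2 to 322.9 RPKM in WT and from 296.7 to 320.4 RPKM in MLL1KO (log2 fold change -0.01). *Gem*, a small GTPase that inhibits calcium channels, fell from 11.9, 12 and 11.9 RPKM in WT to 9.83, 8.19 and 8.76 RPKM in MLL1KO (log2 fold change -0.38, adjusted p = 0.00211). *Rims2*, an active zone protein, rose from 49.5, 47.4 and 47.7 RPKM to 51.9, 56.9 and 54.5 RPKM (log2 fold change 0.17, adjusted p = 0.0196, and -0.15 with rod-gene scaling). Of 8 listed HCN partners and genes of the sodium leak complex, 2 were lower and 2 higher (beside the same shares over all genes), with a median of -0.06 (-0.02 to -0.03 with the 3 scalings and -0.35 with rod-gene scaling), and *Cav3* is not listed. *Pex5l*, which encodes the HCN trafficking protein TRIP8b and is the most abundant of this list, rose from 88.5, 92.8 and 91.3 RPKM in WT to 102.2, 104.6 and 104.0 RPKM in MLL1KO (log2 fold change 0.19, adjusted p = 0.00617, and -0.14 with rod-gene scaling). *Kctd3*, a partner of HCN3, fell from 26.2, 25.2 and 25.3 RPKM to 22.2, 22.0 and 21.5 RPKM (log2 fold change -0.21, adjusted p = 0.00424), beside the fall of *Hcn3*.

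Markers of most retinal cell types moved with genotype, and their part in the channel results was not tested. Counts of called markers below stand beside 14.5% lower and 8.81% higher over all genes. Of 12 listed ganglion cell markers, 11 were lower and 0 higher, and their summed RPKM was 654.2 to 691.0 in WT and 463.8 to 540.9 in MLL1KO, or 73.6% of WT. *Sncg*, the most abundant in WT but not in MLL1KO, had 149.3 to 166.3 RPKM in WT and 96.1 to 117.8 RPKM in MLL1KO; *Pou4f2* had the lowest log2 fold change, -0.89, and *Slc17a6* the highest, -0.15. Of the sodium channels of the spiking list, *Scn3a* was lowest, at 80.3% of its WT mean. *Isl2* and *Pou4f3* are not listed. Of 14 listed amacrine markers, without *Th*, 6 were lower and 3 higher, with a median of 0.07 (0.04 without MLL1KO c and -0.24 with rod-gene scaling) and sums of 788.2 to 818.9 and 738.9 to 768.3 RPKM, which overlapped without *Calb2*, at 528.7 to 556.7 and 543.8 to 604.0 RPKM; *Calb2*, the most abundant by mean, had the lowest log2 fold change, -0.50, and *C1ql2* the highest, 0.35. Of 9 listed horizontal cell markers, without *Gja10* and *Lhx1*, 8 were lower, with sums of 185.2 to 190.8 and 132.6 to 145.8 RPKM; *Sept4* was the most abundant (log2 fold change -0.40), *Slc4a3* the lowest (-0.70) and *Calb1* the highest (-0.13). Of 14 bipolar markers 7 were lower and 0 higher, with sums of 499.8 to 504.1 and 428.1 to 436.3 RPKM; *Grm6* was the most abundant (-0.26), *Neto1* the lowest (-0.81) and *Bhlhe23* the highest (0.09, and -0.22 with rod-gene scaling).

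More photoreceptor and glial markers were higher than lower, while with rod-gene scaling the median was -0.09 for rod, -0.01 for cone, -0.12 for Muller glia and 0.14 for astrocyte markers, beside -0.32 for all genes. Of 11 rod markers 7 were higher and 1 lower, with sums of 7616 to 8106 RPKM in WT and 9589 to 9799 RPKM in MLL1KO; *Gnat1* was the most abundant (log2 fold change 0.39), *Nr2e3* the lowest (-0.36) and *Pde6a* the highest (0.48). Of 11 cone markers 7 were higher and 1 lower, with sums of 366.0 to 395.8 and 434.3 to 472.7 RPKM; *Opn1sw*, the most abundant by WT mean but not in MLL1KO, was the lowest (-0.44) and *Arr3* the highest (0.66). Of 12 Muller glia markers 6 were higher and 2 lower, with sums of 1467 to 1612 and 1856 to 1943 RPKM; *Glul* was the most abundant (0.47), *Crym* the lowest (-0.98) and *Clu* the highest (0.68). All 3 listed astrocyte markers were higher, with sums of 10.6 to 11.6 and 18.9 to 19.4 RPKM; *Gfap* was the most abundant by mean and the highest (0.97) and *Aldh1l1* the lowest (0.39), while *Pax2* is not listed. Whether the members that rose did so with any of these markers was not tested.

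Of 8 vascular markers 4 were lower, with sums of 117.4 to 134.7 RPKM in WT and 86.0 to 94.6 RPKM in MLL1KO; *Kdr* was the most abundant in WT but not in MLL1KO (log2 fold change -0.73), *Acta2* the lowest (-1.31, not called) and *Pdgfrb* the highest (0.01, and -0.28 with rod-gene scaling). Of 7 microglia markers 3 are listed and 0 were called, with sums of 13.4 to 13.8 and 12.2 to 13.7 RPKM; *C1qb* was the most abundant and the lowest (-0.12) and *Cx3cr1* the highest (0.08, and -0.14 with rod-gene scaling), while *P2ry12*, *Tmem119*, *C1qa* and *Aif1* are not listed. Of 6 pigment epithelium markers 3 are listed and 0 were called, with sums of 153.0, 85.8 and 227.6 RPKM in WT a, b and c and 73.3, 144.3 and 74.8 RPKM in MLL1KO a, b and c; *Ttr* was the most abundant and the highest (-0.28) and *Pmel* the lowest (-1.48), and *Rpe65*, *Best1* and *Mlana* are not listed. Of 5 lens markers *Cryaa* alone is listed, and not *Bfsp1*, *Crybb2*, *Crygs* or *Mip*, with 6.54, 6.61 and 7.51 RPKM in WT and 32.1, 12.4 and 7.28 RPKM in MLL1KO a, b and c (log2 fold change 0.97, adjusted p = 0.0949, with 0.42 without MLL1KO a and 1.42 without MLL1KO c).

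Several members are neighbours in the genome, and pairs of neighbours included genes that moved in opposite directions. On chromosome 2, *Scn3a* (65457118 to 65567627), *Scn2a* (65620771 to 65767447), *Scn1a* (66270778 to 66440840) and *Scn7a* (66673425 to 66784914) lie in a cluster. In it *Scn3a* fell, *Scn7a* rose, and *Scn2a* and *Scn1a*, the members between them, were not called. On chromosome 14, *Cacna2d3*, which rose, ends 0.318 Mb before *Cacna1d* (30039939 to 30491455), which fell. On chromosome 11, *Cacng4* and *Cacng5* are 0.08 Mb apart, with log2 fold changes of -0.22 and -0.01. The sodium channels of the cluster are similar in sequence. Of the 50-base stretches in annotated transcripts, 50 bases being the read length, 6.49% in *Scn3a*, 5.76% in *Scn2a* and 4.03% in *Scn1a* also stand in transcripts of other genes, among them each other and *Scn9a*, while *Scn7a* shared 0 of its stretches, so reads of the first 3 are uncertain in that part. For *Cacnb4* and *Cacna1s* the shares were 15% and 16.3%, for the most part with *A430018G15Rik* and *Gm37759* on the other strand.

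**Figure D4:**
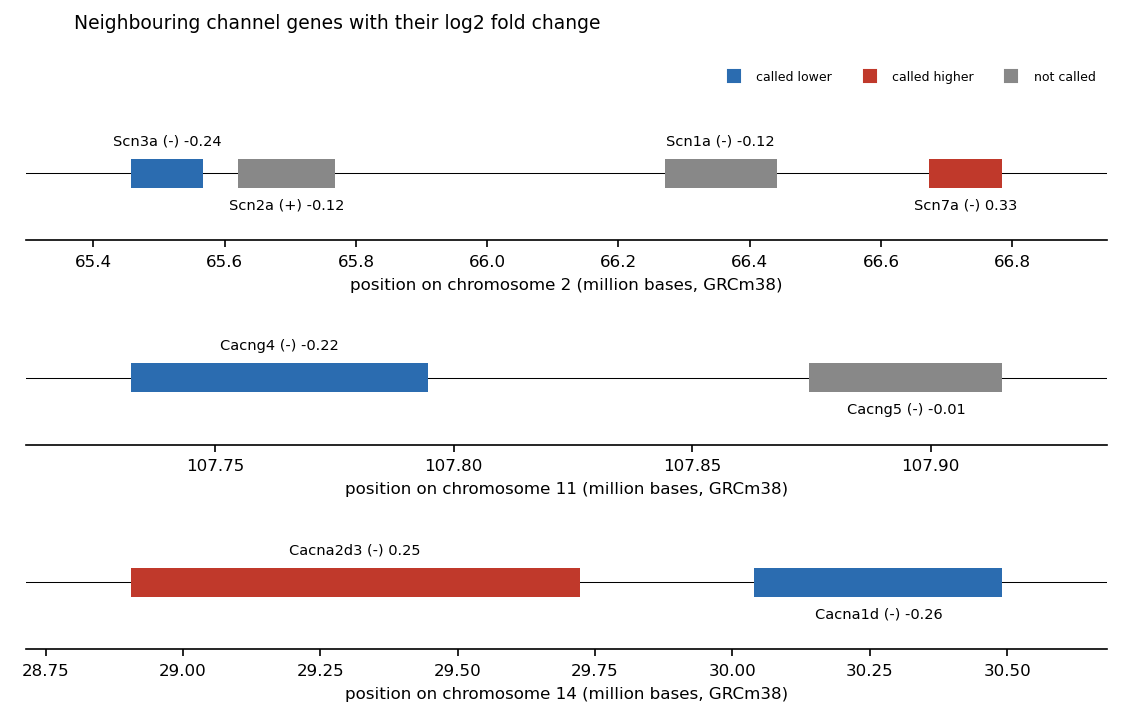
Positions of neighbouring channel genes on chromosomes 2, 11 and 14 (x axes, Mb in GRCm38), with strand and log2 fold change in MLL1KO beside each name. On chromosome 2 the log2 fold change is -0.24 for *Scn3a* and 0.33 for *Scn7a*, and on chromosome 14 it is 0.25 for *Cacna2d3*, which was -0.06 with rod-gene scaling, and -0.26 for *Cacna1d*.

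RefSeq promoters of GRCm38.p6 were matched by symbol for 24 of the 31 members, as 35 starts of transcription, among them those of all 5 members called higher and of 6 of the 12 called lower, and the 250 bases before each start were searched. TAATCC is the core of the site bound by the photoreceptor and bipolar factors CRX and OTX2. It stood on either strand in 2 of 35 member promoters, or 5.71%. Over all 32841 RefSeq promoters, which belong to 27018 genes and not to those of the deposited table alone, the share was 6.25%. The median number of CG dinucleotides was 9 in member promoters and 6 in all promoters, and it ranged from 1 to 50 among members. The matches of TAATCC were in *Scn7a* and *Cacna1s*, the latter within an annotated first exon, and they cannot be read by direction since most of the unsearched members were called lower. The upstream stretches of the gene that fell most and of the gene that rose most are shown with their CG dinucleotides in capitals, 25 in 250 bases for *Hcn4* and 5 in 189 bases for *Cacna1s*, and that of *Scn7a* with TAATCC in capitals. Bases that belong to annotated exons were taken off. They lie at chr9:58822699-58822948 (plus strand), chr1:136052561-136052749 (plus strand) and chr2:66784915-66785160 (minus strand) in GRCm38.p6.
*Hcn4*: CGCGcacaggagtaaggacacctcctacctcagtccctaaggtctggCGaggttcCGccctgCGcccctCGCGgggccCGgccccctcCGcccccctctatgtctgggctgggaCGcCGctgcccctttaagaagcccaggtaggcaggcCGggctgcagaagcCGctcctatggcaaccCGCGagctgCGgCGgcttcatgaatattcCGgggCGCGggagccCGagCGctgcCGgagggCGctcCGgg
*Cacna1s*: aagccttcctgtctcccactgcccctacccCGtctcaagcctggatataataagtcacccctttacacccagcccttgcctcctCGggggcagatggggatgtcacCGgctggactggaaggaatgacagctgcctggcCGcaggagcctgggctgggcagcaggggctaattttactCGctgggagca
*Scn7a*: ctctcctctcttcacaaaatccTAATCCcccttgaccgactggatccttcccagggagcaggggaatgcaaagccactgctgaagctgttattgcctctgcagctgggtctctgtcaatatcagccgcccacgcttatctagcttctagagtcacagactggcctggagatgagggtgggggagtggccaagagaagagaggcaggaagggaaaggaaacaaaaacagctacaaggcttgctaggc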

How the data were processed

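RNA of 3 MLL1KO and 3 WT retina samples was sequenced in single 50-base reads. The authors aligned the reads to mm10 with STAR 2.0.4b, counted them per gene with featureCounts 1.45, kept genes with a CPM above 5 in at least 5 samples, and deposited RPKM values, scaled to gene length and library total. The deposited table also holds the authors' own log2 fold change, mean log2 CPM, p and FDR, which were not analysed here. Of 11404 lines, 11339 genes remained after repeated gene identifiers were removed. Whole reads were recovered from RPKM within a tolerance of 0.01. Since the values are RPKM, as the plan foresaw, the test was limma 3.58.1 in R 4.3.3, not edgeR: log2(RPKM + 1), genotype as the only term, a variance trend, and Benjamini-Hochberg adjustment over all genes with a threshold of 0.05. The model was tested on simulated data. Lists were summarised with Python 3.11.15, pandas 2.3.3 and numpy 2.4.6, and plots drawn with matplotlib 3.10.9. The 16 alternatives changed the pseudocount, filter, scaling, block, model and libraries.

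The members and lists were chosen with earlier results of these data known. The member rule takes 3 further genes, and these and some markers are not reported here, while the fit and the rod-gene scaling used all genes. Every other member is accounted for, with full statistics for called members and for the most abundant gene, by WT mean, of each role group. Of the related and marker lists, the most abundant gene by WT mean and the genes with the highest and lowest log2 fold change are named. Gene positions come from GENCODE vM21. The labels name a poly(A) kit with random primers and rRNA depletion and do not state strandedness.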

Additional observations from a re-analysis of the deposited data

How the results depend on the processing

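Over the members, 383 of 434 values kept direction and side of the threshold when 1 choice was changed, rod-gene scaling and the lone WT library aside, while 32 (5 members) lost and 8 (4 members) gained a call and 11 (3 members) turned sign. Both pseudocounts and the filter at a mean RPKM of 1 changed no call of a member. With rod-gene scaling, 28 members were called, 26 lower and 2 higher, of 9834 genes called in all, beside 17, 12, 5 and 2643. This scaling called 85% of all genes lower and 1.73% higher. It shifts every gene down by construction, and the log2 fold change turned to -0.18 for *Cacna1c*, -0.16 for *Cacna1i*, -0.055 for *Cacna2d3*, -0.21 for *Cacnb2*, -0.20 for *Cacnb4* and -0.077 for *Hcn2*. With WT b as the only WT library, an alternative chosen after seeing the data in which the lone sample is assumed to vary like the others, 5 members were called, 2 lower and 3 higher, of 878 genes, with fewer samples in the fit, and *Cacng5* was at 0.043. *Cacng5* was at 0.019, 0.015 and 0.015 and *Scn8a* at 0.032, 0.028 and 0.028 with median-of-ratios, trimmed-mean and upper-quartile scaling. The cause was not tested.

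Leaving out 1 library gave 13 to 16 members called, 8 to 11 lower and 5 higher, of 1704 (without WT b) to 2536 (without MLL1KO a) genes, and 1757 without MLL1KO c. The log2 fold change ranged from -0.033 to 0.066 for *Cacna1c*, from -0.042 to 0.0091 for *Cacng5* and from -0.055 to 0.029 for *Scn8a*. *Kmt2a* kept its call in all alternatives, between -0.72 and -0.65 with 1 library left out.

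With the letters as a replicate block, 14 members were called, 9 lower and 5 higher, and *Cacna2d1*, *Cacnb3* and *Cacng3* were not (adjusted p = 0.0563, 0.0506 and 0.0733). Over all genes 2242 were called with this block, 11.9% lower and 7.89% higher, in place of 2643, 14.5% and 8.81%. Deviations from the group mean correlated across genes at -0.04, -0.19 and -0.0071 between libraries of the same letter and at -0.09 to 0.13 between different letters, so the letters do not show paired samples. Genes are not independent replicates. The authors' filter limits the table, in which the fewest reads of a gene in a library were 90, so channel genes below that filter could not be measured.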
